A study of Mus musculus with 8 samples.

Results

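The cytosolic ribosome is assembled from ribosomal RNA and a set of ribosomal proteins, each encoded by its own gene. The Rps genes encode proteins of the small (40S) subunit, which reads the mRNA, and the Rpl genes encode proteins of the large (60S) subunit, which forms the peptide bond. Rplp0, Rplp1 and Rplp2 form the acidic stalk (P stalk) of the large subunit, which recruits translation factors. Ribosomal protein mRNAs start with a run of pyrimidines, the terminal oligopyrimidine (TOP) motif, through which the mTORC1 kinase controls their translation. The same pathway leads to phosphorylation of ribosomal protein S6, the product of Rps6, and phosphorylated S6 (pS6) rises in active neurons.

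The genes were chosen by symbol: an Rpl or Rps stem with a number, together with Rplp0, Rplp1, Rplp2 and Rpsa, leaving out the symbols marked as pseudogenes and the S6 kinases. This gave 86 symbols, of which 84 had at least 1 TPM (transcripts per 1000000, the scale of the deposited values) in at least 2 of the 8 libraries, among 14365 genes that passed the same floor. They comprised 48 genes of the 60S subunit, 33 of the 40S subunit and 3 of the P stalk, and were spread over 19 chromosomes. Rpl10l and Rpl39l, the copies of Rpl10 and Rpl39 known mainly from testis, did not reach the floor. Just inside it stood Rpl32l, with a highest value of 1.17 TPM, and then Rpl3l, with a highest value of 3.24 TPM. The GENCODE annotation calls 2 of the 84, Rpl32l and Rps4l, processed pseudogenes, and both were kept because the rule goes by symbol. Mouse ribosomal protein genes have many near-identical processed copies in the genome, and how the authors' software shared reads between copies is not given in the sources used here, so single values are uncertain to that extent.

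The study asked which lateral septum neurons respond to acute restraint and used PhosphoTrap, in which ribosomes that carry pS6 are pulled out of a brain lysate with an antibody and their RNA is read out together with that of the unselected lysate. The RS IP group held pS6-bound RNA from C57Bl6J mice restrained for 1 h in a flexible cone, and the naive IP group held pS6-bound RNA from C57Bl6J mice left in the home cage. The RS input and naive input groups held RNA saved from the same lysates ahead of the pulldown, which used 4 ug of a polyclonal anti-pS6 antibody on Protein A beads. Each library came from a pool of the septa of 4 to 6 mice, and each group had 2 pools here, where the labels speak of more. The labels place death 1 h after restraint, and the methods of the study word the interval differently, so it was not settled. The antibody binds ribosomes of any cell with pS6, including glia, and the labels report no sort of cells.

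The depth of the libraries is unknown, because TPM values keep no read number. Precision thus rested on the spread between the 2 pools of each group, joined over the 4 groups. Neuronal markers were present in all libraries (summed TPM of 10 genes between 4052 and 5101). RS and naive libraries differed in other markers: the summed TPM of 6 choroid plexus genes, led by Ttr, was 2063 and 2075 in RS IP, 37.0 and 35.6 in naive IP, 278 and 332 in RS input, and 15.6 and 16.5 in naive input. The summed TPM of 10 oligodendrocyte genes was 8803 and 8206 in RS input, against 6932 and 6846 in naive input. By gene, between RS input and naive input, neuronal markers were higher for 6 and lower for 1 of 10, oligodendrocyte markers for 7 and 1 of 10, astrocyte markers for 5 and 1 of 8, microglial markers for 3 and 0 of 7, and choroid plexus markers for 4 and 0 of 6 (limma, adjusted p under 0.05). Markers of endothelial and mural cells were higher for 0 and lower for 4 of 6, of blood cells for 1 and 2 of 7, and of meningeal fibroblasts for 0 and 0 of 6. Of all genes tested, 20.3% were higher and 8.21% lower. Scaling to the median gene level between libraries gave 2 higher and 1 lower for neurons, 5 and 2 for oligodendrocytes, and 4 and 1 for astrocytes. It gave 0 and 0 for microglia and 0 and 1 for meningeal fibroblasts, and left the counts of the other lists as they were. Blood cell markers were higher in the IP than in the input for 6 of 7 in RS and 7 of 7 in naive mice, where 17.8% and 17.4% of all genes were. The part of these differences in the ribosomal protein values was not tested. A spreadsheet had turned 26 symbols of each table into dates, with the year 2020 in all 4 RS tables and 2019 in all 4 naive tables, so restraint and a difference in handling between conditions cannot be told apart. In bulk tissue, fewer cells of a type and less RNA per cell cannot be told apart either.

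The sequence that these genes are known to share lies at their transcription start. Among 63 members found in the RefSeq promoter table (mouse build GRCm38.p6), 22 (34.9%) held CTTTC or CTTTT on the sense strand within 25 bases before to 25 bases after a listed start, against 13.2% of the 27025 genes of the table. On the antisense strand the shares were 15.9% of members and 12.3% of all genes. The letters were chosen after the sequences had been seen, the 2 motifs share their first 4 letters, and a match is a description of the sequence and not a mapped start. The following 30-base windows cover listed starts or the pyrimidine run next to them, 5′ to 3′ on the strand of the gene, with that run in capitals. Rps6 is shown as the antibody's target, Rps27, Rps26 and Rpl38 for values given below, Rpl4 as a gene that behaved unlike these in the IP, and Rpl7l1 as a member with neither motif.
Rps6: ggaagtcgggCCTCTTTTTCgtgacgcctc
Rps27: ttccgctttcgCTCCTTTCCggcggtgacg
Rps26: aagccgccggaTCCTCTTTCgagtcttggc
Rpl38: ggaagcctcgTTCTTTCCCCgttctcttcg
Rpl4: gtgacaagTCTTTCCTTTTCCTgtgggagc
Rpl7l1: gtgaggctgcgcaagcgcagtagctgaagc
These windows lie at chr4:86857349-86857378 (minus strand), chr3:90213632-90213661 (minus), chr10:128626485-128626514 (minus), chr11:114668568-114668597 (plus), chr9:64173361-64173390 (plus) and chr17:46782642-46782671 (minus), in the order shown.

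Ribosomal protein mRNAs made up 3.86% and 3.87% of the TPM in RS IP, 4.01% and 4.01% in naive IP, 1.71% and 2.10% in RS input, and 3.02% and 3.02% in naive input. The summed TPM was 38668 ± 104 in RS IP, 40103 ± 63.6 in naive IP, 19006 ± 2754 in RS input and 30183 ± 36.4 in naive input (SD, n = 2 each). RS input thus stood apart from the other 3 groups, at 0.630 times naive input, while RS IP was at 0.964 times naive IP. Both subunits were lower in RS input: the 33 genes of the 40S subunit summed to 6608 ± 967 in RS input, against 11025 ± 18.8 in naive input, and the 48 genes of the 60S subunit to 11478 ± 1694 in RS input, against 17845 ± 26.4 in naive input. The 3 stalk genes summed to 919 ± 93.0 in RS input, against 1313 ± 28.9 in naive input. No test was run on these sums.

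**Figure D1:**
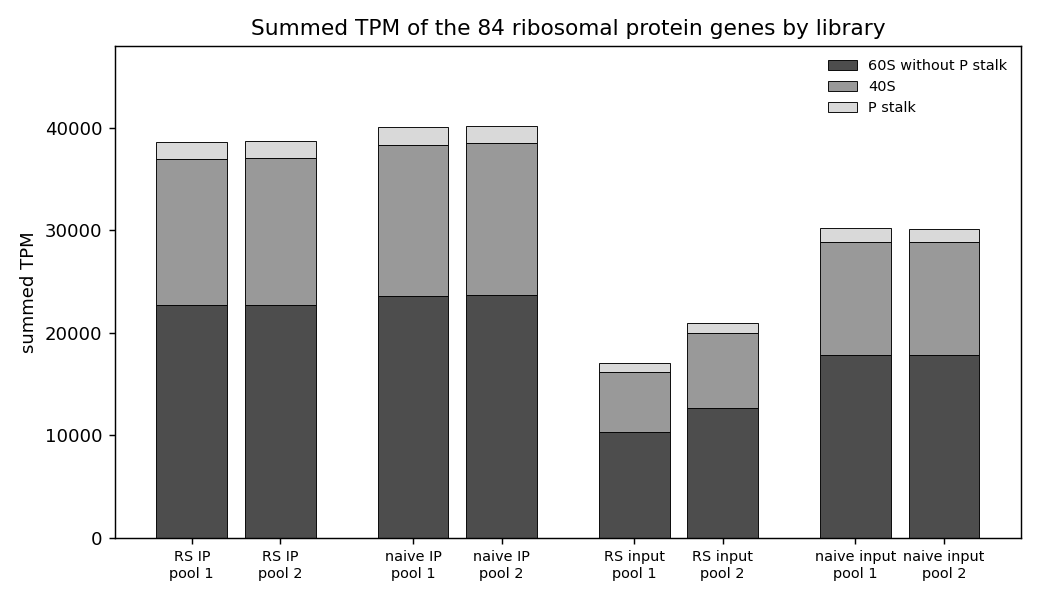
Summed TPM (y axis) of the 84 ribosomal protein genes in each of the 8 libraries (x axis), stacked by 60S, 40S and P stalk genes. Both RS input pools (17058 and 20953) lie below both naive input pools (30209 and 30157), whereas the 4 IP libraries lie between 38594 and 40148.

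The members themselves spanned a wide range of levels. Rpl38, Rpl3, Rps29 and Rpl41 were among the 5 most abundant by mean TPM, and 77 of the 84 reached 100 TPM in each IP library. Rpl38, a small 60S protein whose loss in mice alters axial patterning, was the most abundant in the IP, with 1841 and 1916 TPM in RS IP and 2036 and 2025 TPM in naive IP. In the input the most abundant was Rpl3, a protein close to the peptidyl transferase centre, with 948 and 1123 TPM in RS input and 1503 and 1569 TPM in naive input. Rpl3 was thus the lower of these 2 genes in the IP and the higher in the input, with no overlap within any of the 4 groups. Rps15a and Rps20, whose products belong to the 40S subunit, stayed below 32 TPM in every library. Their annotated transcripts are also the longest of all members, with medians of 5130 and 3706 bases, and a TPM divides by the transcript length that the software used.

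The comparison of RS input with naive input sets the whole septum RNA of restrained mice against that of undisturbed mice. In it, 78 of 84 ribosomal protein genes fell, where 8.21% of all genes tested were lower, and 0 rose, where 20.3% of all genes tested were higher (limma, adjusted p under 0.05). At an unadjusted p under 0.05, 80 were lower, where 11.5% of all genes were, and 0 higher, where 30.3% of all genes were. The median change of the members was -0.68 on the log2(TPM + 1) scale, a level 1.60-fold lower in RS input, against a median of 0.13 over all genes, a difference of -0.81. Both RS input pools lay below both naive input pools for 81 of 84 members, against 19.3% of all genes, and the exceptions were Rpl3l, Rpl32l and Rpl7l1. By subunit, 31 of 33 genes of the 40S subunit, 44 of 48 of the 60S subunit and 3 of 3 of the P stalk fell. At least a 2-fold fall was found for 5 members, Rps27, Rps21, Rpl39, Rps26 and Rpl36, where 0.522% of all genes fell that far.

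Among the 40S genes, Rps27 fell furthest. It encodes a zinc-finger protein of the small subunit and stood at 206 and 309.6 TPM in RS input, against 609 and 668 TPM in naive input (log2 change -1.34 ± 0.16 (SE), adjusted p = 0.00173). Rps21 had 132 and 167 TPM in RS input and 304 and 323 TPM in naive input (log2 change -1.07 ± 0.10 (SE), adjusted p = 0.00101). Rps26, whose protein contacts the mRNA at the exit channel, had 93.5 and 143 TPM in RS input and 253 and 230.4 TPM in naive input (log2 change -1.06 ± 0.16 (SE), adjusted p = 0.00381). In all 3 genes the lower RS pool was pool 1 and the groups did not overlap. Rps29 had 345 and 475 TPM in RS input, against 767 and 789 TPM in naive input, and Rps28 had 111 and 153 TPM, against 254 and 249.7 TPM in naive input. Both fell, with RS input pool 1 again the lowest library.

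Rps6 itself, the target of the antibody, fell less than 74 of the 84 members. Its level was 291 and 312 TPM in RS input and 400.1 and 387 TPM in naive input (log2 change -0.38 ± 0.05 (SE), adjusted p = 0.00289). Within the IP it stood at 413 and 387 TPM in RS and 404 and 421 TPM in naive mice, where the pools of both conditions overlapped. Rps6 mRNA was thus lower in RS input than in naive input, with no overlap. The RS IP pools overlapped those of naive IP and of naive input, whereas both naive IP pools were above both naive input pools.

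Among the 60S genes, Rpl39, whose product lines the peptide exit tunnel, had 77.5 and 111 TPM in RS input and 209 and 182 TPM in naive input (log2 change -1.06 ± 0.15 (SE), adjusted p = 0.00259). Rpl36 had 179 and 228 TPM in RS input and 404 and 409 TPM in naive input (log2 change -1.004 ± 0.10 (SE), adjusted p = 0.00118). Rpl27a had 86.2 and 125 TPM in RS input and 209.8 and 197 TPM in naive input (log2 change -0.96 ± 0.15 (SE), adjusted p = 0.00352). All 3 were lower in both RS pools. Rpl4, a protein of the exit tunnel wall, had 735 and 789.5 TPM in RS input and 955 and 957 TPM in naive input. Rpl5 and Rpl11 bind 5S ribosomal RNA and, when free, the p53 regulator Mdm2. Rpl5 had 131 and 135 TPM in RS input and 162 and 163 TPM in naive input (log2 change -0.29), and Rpl11 had 125 and 185 TPM in RS input and 266 and 258 TPM in naive input (log2 change -0.78). Both fell, but Rpl5 missed the threshold without RS input pool 1, naive input pool 1 or naive input pool 2 (adjusted p between 0.0733 and 0.0761).

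In the P stalk, Rplp0 anchors the dimers of Rplp1 and Rplp2. Rplp0 had 376 and 401 TPM in RS input and 470.0 and 470.1 TPM in naive input (log2 change -0.27 ± 0.05 (SE), adjusted p = 0.00527). Rplp1 had 275 and 335 TPM in RS input and 516 and 504 TPM in naive input (log2 change -0.75 ± 0.09 (SE), adjusted p = 0.00171), and Rplp2 had 202 and 248 TPM in RS input and 347 and 319 TPM in naive input (log2 change -0.57 ± 0.09 (SE), adjusted p = 0.00401). All 3 fell and none overlapped, although Rplp2 missed the threshold after correction for length and GC content (adjusted p = 0.113). The 6 members that did not pass the test were Rpl22, Rps15a, Rpl32l, Rps4l, Rpl3l and Rpl7l1. Rpl7l1, a relative of Rpl7 that resembles a yeast factor of large subunit assembly, had 128 and 138 TPM in RS input and 133 and 124 TPM in naive input, so that its pools overlapped.

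The 2 RS input pools were not alike for these genes. RS input pool 1 was below pool 2 for 82 of 84 members, by a median of 1.23-fold, where over all genes the median ratio was 0.972. In the other groups pool 1 was the lower for 41 (RS IP), 43 (naive IP) and 40 (naive input) of 84 members. Without RS input pool 1, 76 members were still lower and the median change was -0.54. Without RS input pool 2, 78 were lower and the median was -0.83.

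**Figure D2:**
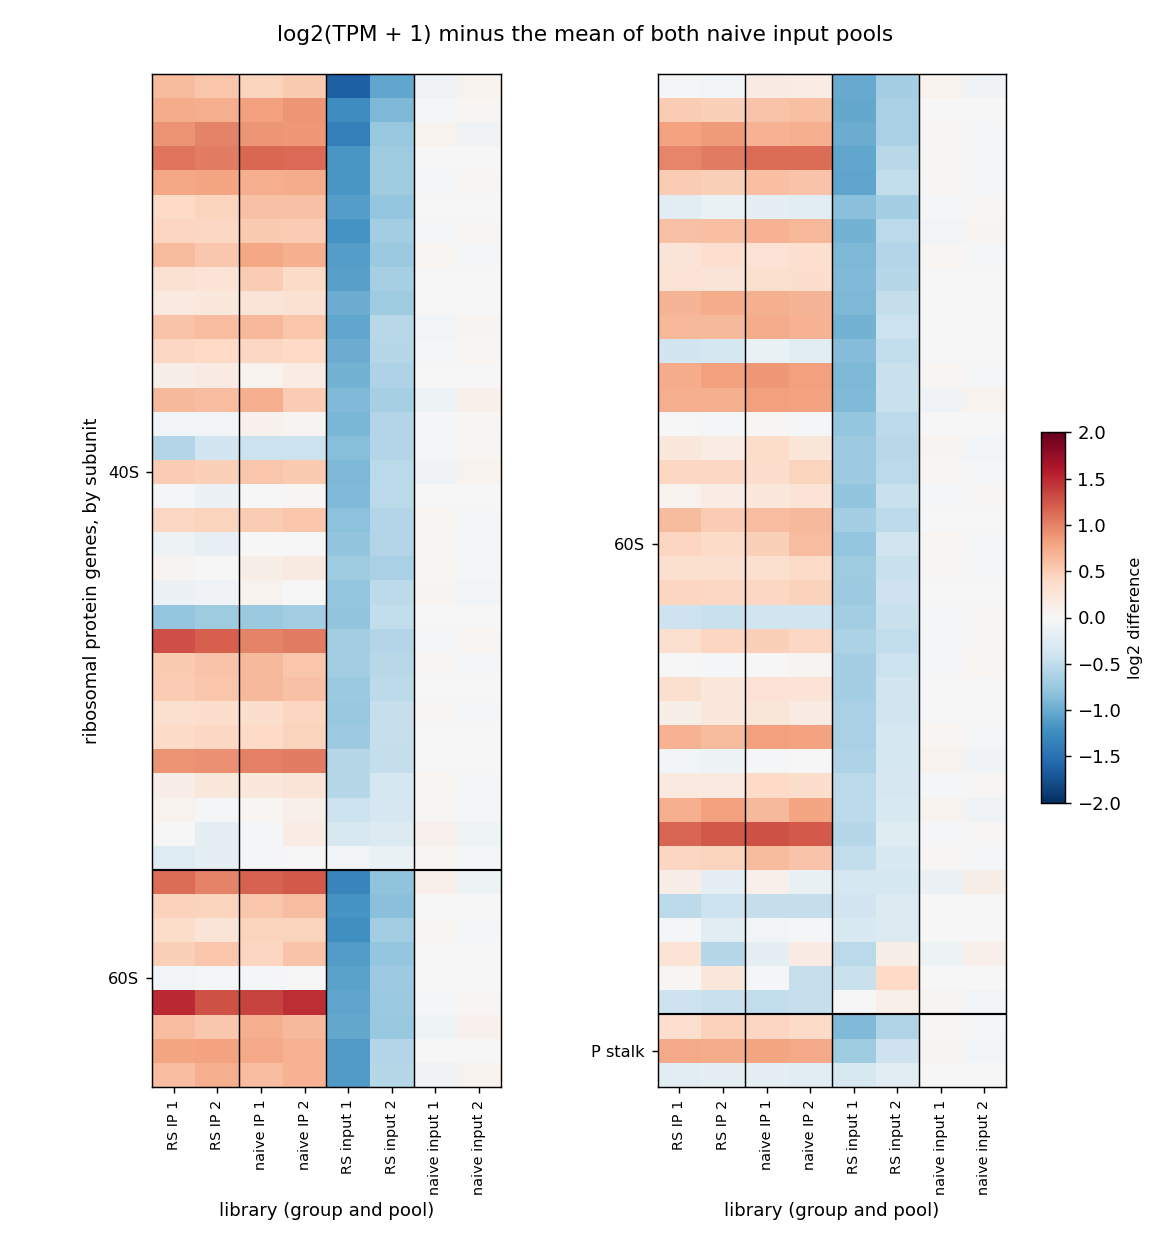
Difference of log2(TPM + 1) from the mean of both naive input pools (colour, blue lower and red higher) for the 84 members (unlabelled rows in 2 panels, grouped by subunit and then ordered by change in RS input) in the 8 libraries (columns). The 2 RS input columns are blue for nearly all rows and pool 1 is the darker of them, while the RS IP and naive IP columns share their pattern.

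Between RS IP and naive IP, which compares the RNA on pS6 ribosomes of restrained and undisturbed mice, 0 of 84 members rose, where 1.98% of all genes tested were higher, and 0 fell, where 0.327% of all genes were lower (limma, adjusted p under 0.05). At an unadjusted p under 0.05, 1 was higher, where 10.1% of all genes were, and 5 were lower, where 6.17% of all genes were, so that the share of members lower was near that of all genes. The lowest adjusted p among members was 0.137. That lowest value belonged to Rps27l, a close relative of Rps27 known in human cells as a p53 target, with 129 and 122 TPM in RS IP and 106 and 109 TPM in naive IP. The median change of the members was -0.06, with members between -0.21 and 0.37 and standard errors between 0.04 and 0.32. Both RS IP pools lay below both naive IP pools for 42 of 84 members, against 21.2% of all genes, and above them for 8, against 25.1% of all genes. The highest of all members, Rpl38, was among those below, and the 8 above were Rpl32, Rpl3l, Rpl41, Rpl7l1, Rps26, Rps27, Rps27l and Rps29. The members' changes between the IPs thus did not pass the test, whereas most of those between the inputs did.

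In RS mice, setting IP against input, 73 of 84 members were higher in the IP, where 17.8% of all genes tested were higher, and 2 were lower, where 54.9% of all genes were lower. The median change was 1.05, a 2.07-fold higher level in RS IP, against a median of -0.42 over all genes, a difference of 1.47. At least a 2-fold higher level was found for 44 members, where 5.30% of all genes reached it. By subunit, 30 of 33 genes of the 40S subunit, 41 of 48 of the 60S subunit and 2 of 3 of the P stalk were higher. With median-of-ratios scaling, which sets the median gene level between libraries and moved the median of all genes by 0.43 here, 81 members were higher and 0 lower, with 4795 genes higher and 4477 lower overall.

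In naive mice, 57 of 84 members were higher in the IP than in the input, where 17.4% of all genes tested were higher, and 7 were lower, where 49.2% of all genes were lower. The median change was 0.44, a 1.36-fold higher level in naive IP, against a median of -0.32 over all genes, a difference of 0.76. At least a 2-fold higher level was found for 7 members, where 3.32% of all genes reached it. By subunit, 23 of 33 genes of the 40S subunit, 32 of 48 of the 60S subunit and 2 of 3 of the P stalk were higher. Median-of-ratios scaling moved the median of all genes by 0.32 and gave 74 members higher and 1 lower, with 4432 genes higher and 4117 lower overall.

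**Figure D3:**
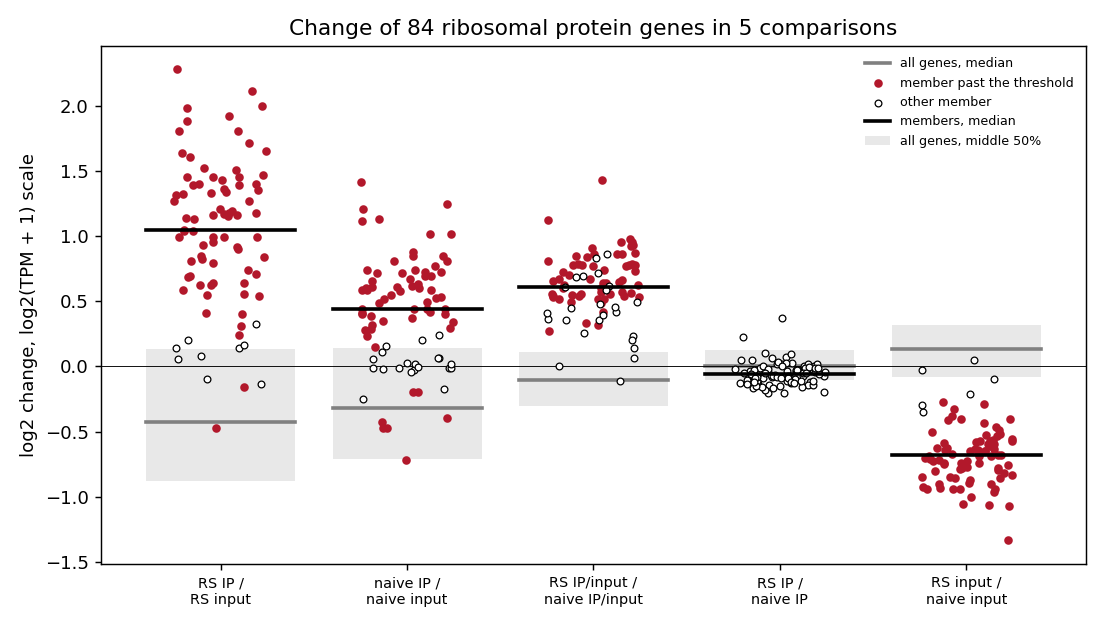
log2 change on the log2(TPM + 1) scale (y axis) of the 84 members in the 5 comparisons (x axis); filled points passed the test, black lines mark the members' medians, and grey boxes and lines mark the middle 50% and the median of all 14365 genes. Members lie above all genes in both IP to input comparisons (medians 1.05 and 0.44), near 0 between the IPs (-0.06) and below between the inputs (-0.68).

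Of the 40S genes, Rps26 had 453 and 479.6 TPM in RS IP, against 93.5 and 143 TPM in RS input (log2 change 2.00 ± 0.16 (SE), adjusted p = 1.49e-05). Rps28 had 529 and 514 TPM in RS IP, against 111 and 153 TPM in RS input (log2 change 1.99 ± 0.12 (SE), adjusted p = 3.98e-06), and Rps27 had 986 and 934 TPM in RS IP, against 206 and 309.6 TPM in RS input (log2 change 1.92 ± 0.16 (SE), adjusted p = 1.56e-05). For these 3 genes the IP pools were close together and several times above both input pools. In naive mice, Rps28 had 559 and 551 TPM in naive IP and 254 and 249.7 TPM in naive input (log2 change 1.14 ± 0.12 (SE), adjusted p = 9.84e-05). Rps27l was at 106 and 109 TPM in naive IP and 51.1 and 53.7 TPM in naive input (log2 change 1.02 ± 0.07 (SE), adjusted p = 1.02e-05). It was again higher in RS, with 129 and 122 TPM in RS IP and 32.1 and 34.4 TPM in RS input (log2 change 1.89).

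Of the 60S genes, Rpl22l1, the paralog of Rpl22, showed the highest ratio of all members in both conditions. It had 510.2 and 438 TPM in RS IP and 86.1 and 108 TPM in RS input (log2 change 2.28 ± 0.11 (SE), adjusted p = 1.90e-06). In naive mice it had 465 and 507 TPM in naive IP and 176 and 186 TPM in naive input (log2 change 1.42 ± 0.11 (SE), adjusted p = 2.40e-05). Rpl39 had 422 and 391 TPM in RS IP and 77.5 and 111 TPM in RS input (log2 change 2.12 ± 0.15 (SE), adjusted p = 6.98e-06), and 444 and 460.0 TPM in naive IP and 209 and 182 TPM in naive input (log2 change 1.21 ± 0.15 (SE), adjusted p = 0.000189). Rpl34 and Rpl38 were also among the highest in naive mice. Rpl34 had 274 and 265 TPM in naive IP and 111 and 114 TPM in naive input (log2 change 1.25 ± 0.10 (SE), adjusted p = 2.54e-05), and Rpl38 had 2036 and 2025 TPM in naive IP and 950.1 and 923 TPM in naive input (log2 change 1.12 ± 0.13 (SE), adjusted p = 0.000134). Reads of Rpl34 may be shared with the listed pseudogene Rpl34-ps1, which stood at 198 and 219 TPM in naive IP and 124 and 127 TPM in naive input.

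Few members were lower in the IP. In naive mice Rpsa, also known as the laminin receptor, had 248 and 255 TPM in naive IP and 414 and 416 TPM in naive input (log2 change -0.72 ± 0.09 (SE), adjusted p = 0.000169). Rps2, a neighbour of the mRNA entry channel, had 220.4 and 221 TPM in naive IP and 290.3 and 305 TPM in naive input (log2 change -0.43 ± 0.09 (SE), adjusted p = 0.00431). Both 40S genes were lower without overlap. Rpl4 had 686 and 690.2 TPM in naive IP and 955 and 957 TPM in naive input (log2 change -0.47 ± 0.05 (SE), adjusted p = 7.96e-05). Rpl3 had 1170.5 and 1161 TPM in naive IP and 1503 and 1569 TPM in naive input (log2 change -0.40 ± 0.07 (SE), adjusted p = 0.00148), and Rpl7l1 had 91.2 and 92.3 TPM in naive IP and 133 and 124 TPM in naive input (log2 change -0.48 ± 0.06 (SE), adjusted p = 0.000246). The remaining 2 were Rpl13a (log2 change -0.20 ± 0.06 (SE), adjusted p = 0.0231) and Rplp0 (log2 change -0.19 ± 0.05 (SE), adjusted p = 0.00653), which were both 0.19 above 0 with median-of-ratios scaling, Rplp0 then past the threshold on the higher side (adjusted p = 0.0245). Rpl13a missed the threshold without any 1 of the 4 naive libraries (adjusted p between 0.0541 and 0.118). With that scaling only Rpsa remained past the threshold on the lower side.

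In RS mice the 2 lower members were Rpl7l1 and Rpl4. Rpl7l1 had 96.3 and 94.3 TPM in RS IP and 128 and 138 TPM in RS input (log2 change -0.47 ± 0.06 (SE), adjusted p = 0.000186). Rpl4 had 663 and 706 TPM in RS IP and 735 and 789.5 TPM in RS input (log2 change -0.15 ± 0.05 (SE), adjusted p = 0.0196). With median-of-ratios scaling both directions turned, to 0.03 for Rpl7l1 (adjusted p = 0.682) and 0.36 for Rpl4 (adjusted p = 0.00132). With length and GC correction neither passed (-0.13, adjusted p = 0.122 for Rpl7l1 and -0.08, adjusted p = 0.228 for Rpl4), and the 2 members then called lower were others. Rpl4 also missed the threshold without RS IP pool 1 (adjusted p = 0.123) or RS input pool 2 (adjusted p = 0.0705). Rps6 was higher in RS IP than in RS input (log2 change 0.41 ± 0.05 (SE), adjusted p = 0.000244), a change that turned to -0.05 after correction for transcript length and GC content. In naive mice its change was 0.07 (adjusted p = 0.304). Both alternatives made a call there in opposite directions, -0.20 after that correction (adjusted p = 0.00488) and 0.45 with median-of-ratios scaling (adjusted p = 0.000677).

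**Figure D4:**
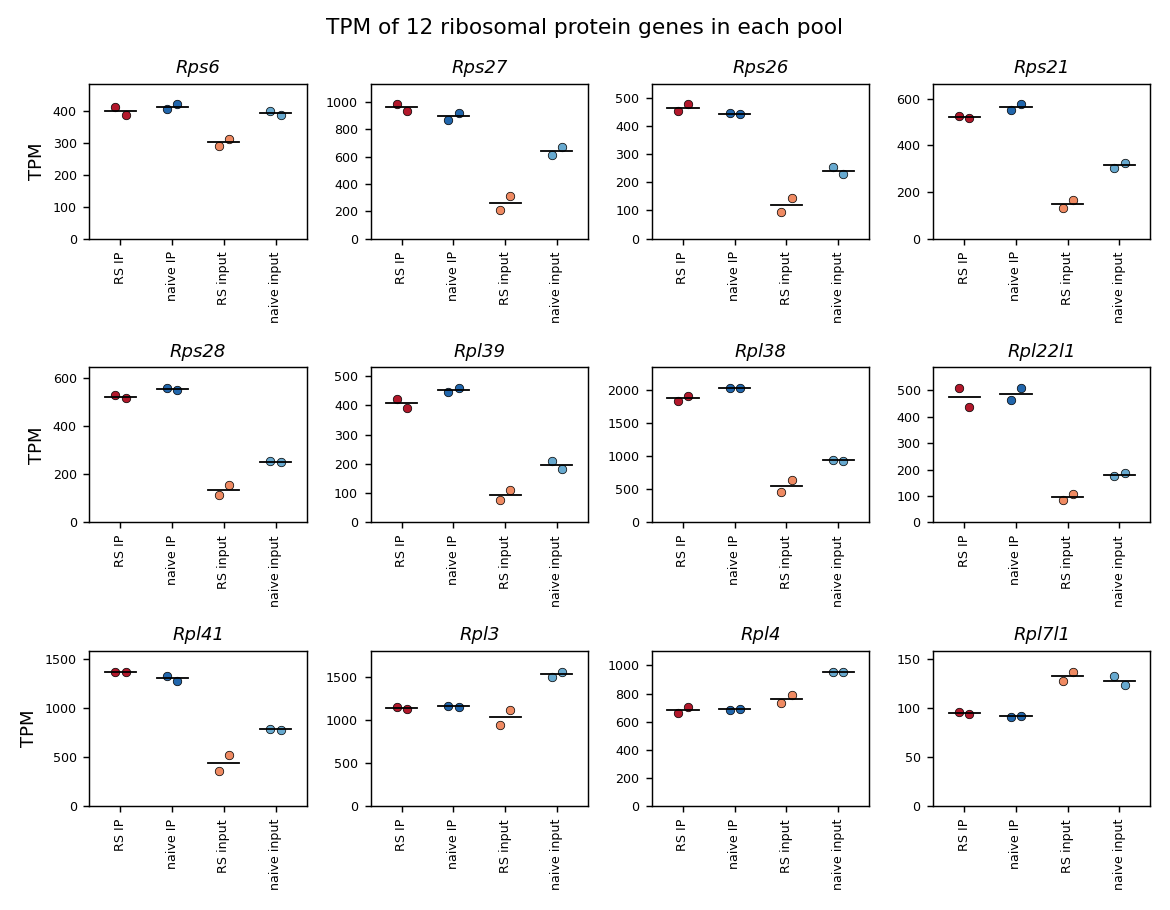
TPM (y axis, each from 0) of 12 named members in the 2 pools (points) of each group (x axis), with lines at the group means. For Rps27, Rps26, Rps21, Rps28, Rpl39, Rpl38, Rpl22l1 and Rpl41 the RS input pools are the lowest and the IP pools the highest, whereas for Rpl3, Rpl4 and Rpl7l1 the naive input pools lie above both IP groups.

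Comparing the 2 ratios by the interaction term, 59 of 84 members had a higher IP to input ratio in RS than in naive mice, where 3.29% of all genes tested did, and 0 had a lower one, where 3.46% of all genes did. At an unadjusted p under 0.05, 77 had a higher ratio, where 9% of all genes did, and 0 a lower one, where 17.4% of all genes did. The median difference of the ratios was 0.61 on the log2 scale, against -0.11 over all genes, a difference of 0.72. The largest were those of Rps27 (log2 change 1.43 ± 0.22 (SE), adjusted p = 0.0192), Rps26 (log2 change 1.12 ± 0.23 (SE), adjusted p = 0.0347) and Rps29 (log2 change 0.98 ± 0.17 (SE), adjusted p = 0.0240). They were followed by Rpl37 (log2 change 0.96 ± 0.15 (SE), adjusted p = 0.0192), Rps21 (log2 change 0.96 ± 0.14 (SE), adjusted p = 0.0181) and Rpl41 (log2 change 0.93 ± 0.21 (SE), adjusted p = 0.0420), the last encoding the smallest of all ribosomal proteins. These differences share the RS input values described above, and the same genes differed little between the IPs: Rpl41, for example, had 1363 and 1372 TPM in RS IP, 1327 and 1277 TPM in naive IP, 356 and 525 TPM in RS input and 791 and 779 TPM in naive input.

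The count for the interaction was sensitive to the fit. With the pool as a block, since IP and input of 1 number come from 1 pool, 8 of 84 members passed, and the adjusted p was 0.0517 for Rps27, 0.0548 for Rps26, 0.0543 for Rps29 and 0.0624 for Rpl41. Rps21 and Rpl37 stayed past the threshold with that block, but not under every alternative. Rps21 missed it after correction for length and GC content (log2 change 0.45, adjusted p = 0.113). Rpl37 missed it without the filter on low values (log2 change 0.96, adjusted p = 0.0529). With pools as a correlated effect 57 members passed. After correction for length and GC content 12 passed, and without the filter on low values 7 did. Over all genes, calls in either direction also moved, from 970 of 14365 to 78 with the pool as a block and 942 with the correlated effect. They numbered 322 of 14233 after correction for length and GC content, and 246 of 19401 without the filter. Leaving out 1 library gave 61 without RS input pool 1 and 77 without RS input pool 2, but 0 without naive IP pool 1 or naive input pool 2, 1 without RS IP pool 1, RS IP pool 2 or naive input pool 1, and 2 without naive IP pool 2. The number of genes called overall moved as well, between 24 and 1325 of 14365. The median over members was between 0.46 and 0.78 when 1 library was left out, and 0.38 with length and GC correction.

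The members' changes went with the length of their coding sequence. Over 82 members with an annotated coding sequence, the change from RS input to RS IP had a Pearson's r of -0.78 (Spearman's rho -0.81) with log2 coding length, and that from naive input to naive IP an r of -0.73 (rho -0.77). For RS input against naive input r was 0.53 (rho 0.48). Over the other genes tested, 13261 with a coding sequence, r was -0.51, -0.44 and 0.39. These are descriptions across genes of the same libraries, which are not independent replicates. Rpl41, Rpl39, Rps29, Rps28 and Rpl38, with coding sequences of 75, 153, 168, 207 and 210 bases, were all higher in the IP by more than Rpl3 and Rpl4, with 1209 and 1257 bases.

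**Figure D5:**
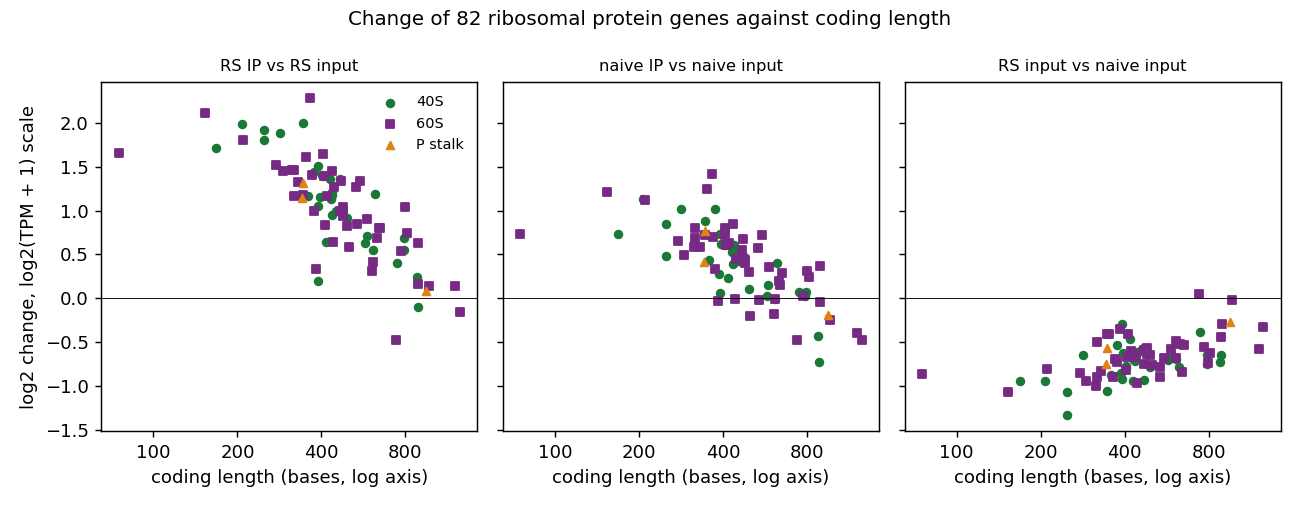
log2 change (y axis) against coding length in bases (x axis, log scale) for the 82 members with an annotated coding sequence, in 3 comparisons (panels), with symbols by subunit. Shorter genes lie higher in the 2 IP to input panels (r of -0.78 and -0.73) and lower in the RS input against naive input panel (r of 0.53).

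Within bins of like transcript length, the medians of the members were below those of the other genes in RS input against naive input. The 24 members with transcripts under 600 bases had a median of -0.82, against -0.41 for 379 other genes. The 20 members from 800 to 1000 bases had a median of -0.71, against -0.18 for 603 other genes, and the 12 from 1000 to 1500 bases -0.61, against -0.07 for 1709. For naive IP against naive input the members' medians were above those of the other genes in some bins and below in others. They were 0.67 against 0.48 under 600 bases, 0.441 against 0.436 from 600 to 800, and 0.15 against 0.23 from 800 to 1000. From 1000 to 1500 bases they were 0.335 against 0.025, from 1500 to 3000 -0.47 against -0.31, and 0.25 against -0.58 for the 2 members of 3000 bases or more. For RS IP against RS input the members' medians were above those of the other genes in every bin. They were 1.45 against 0.88 under 600 bases, 0.99 against 0.74 from 600 to 800, and 0.75 against 0.41 from 800 to 1000. In the longer bins they were 0.82 against 0.08, -0.10 against -0.38 and 0.68 against -0.78. With all genes corrected for length and GC content, 72 members were lower in RS input than in naive input (median -0.46), 71 of them among the 78 called without the correction, and 66 were higher in RS IP than in RS input (median 0.57), 63 of them among the 73 called without it. In naive mice the corrected counts were 40 higher and 18 lower (median 0.22), where the uncorrected were 57 and 7. Of all 14233 genes so corrected, 927 were lower in RS input than in naive input. In RS IP against RS input, 3954 of them were higher, and in naive IP against naive input 3683 were higher and 4190 lower.

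Paralogs offer a comparison within the family. Rpl22l1 made up 90.6% and 91.3% of the summed TPM of Rpl22 and Rpl22l1 in RS IP, 90.1% and 92.2% in naive IP, 69.8% and 74.3% in RS input, and 79.99% and 78.1% in naive input. Its share was thus highest in the IP of both conditions and lowest in RS input, without overlap between IP and input. Rpl22 changed little, with 52.9 and 41.9 TPM in RS IP, 51.3 and 43.1 TPM in naive IP, 37.4 and 37.2 TPM in RS input and 44.1 and 52.1 TPM in naive input. Its annotated transcript, 2048 bases, is longer than that of Rpl22l1, although both proteins are of like size.

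Rpl7l1 went the other way from Rpl7. Its share of the pair was 14.97% and 14.015% in RS IP, 13.2% and 12.9% in naive IP, 29.96% and 26.6% in RS input, and 20.6% and 19.0% in naive input. Rpl7 itself had 547 and 578 TPM in RS IP and 299 and 379 TPM in RS input (log2 change 0.74 ± 0.10 (SE), adjusted p = 0.000203), and it fell in RS input against naive input (512 and 526 TPM in naive input, log2 change -0.62). Rpl36a and Rpl36al encode nearly identical proteins, and both fell in RS input (log2 change -0.50 for Rpl36al and -0.89 for Rpl36a). Rpl36al formed 72.5% and 72.7% of the pair in RS IP, and 72.5% and 73.4% in naive IP. Its share was 72.9% and 69.8% in naive input. In RS input it was 76.5% and 76.8%, above the other groups without overlap. Rps27l formed 11.6% and 11.5% of its pair with Rps27 in RS IP, 10.8% and 10.6% in naive IP, 13.5% and 9.99% in RS input, and 7.74% and 7.44% in naive input. Rps4l formed 15.1% to 16.6% of its pair with Rps4x in the IP and naive input libraries, and 24.4% and 20.6% in RS input. Rpl3l, known from muscle, formed at most 0.288% of its pair with Rpl3. Gene copies as close as Rpl36a and Rpl36al may share reads.

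Rps27a encodes ubiquitin fused to a 40S protein, and Fau encodes a ubiquitin-like protein fused to a 40S protein. Rps27a had 504 and 495 TPM in RS IP and 533 and 532 TPM in naive IP, with 164 and 229 TPM in RS input and 366 and 378 TPM in naive input, and fell in RS input (log2 change -0.94 ± 0.13 (SE), adjusted p = 0.00247). The symbol of Fau does not match the rule. Fau had 556 and 559 TPM in RS IP, 608 and 604 TPM in naive IP, 252 and 312 TPM in RS input and 421 and 404 TPM in naive input. Both genes were lowest in RS input and highest in naive IP.

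The lists of the wider translation pathway are read against the share of all genes called, which was 20.3% higher and 8.21% lower for RS input against naive input, 17.8% higher and 54.9% lower for RS IP against RS input, and 17.4% higher and 49.2% lower for naive IP against naive input. Of 27 other genes with TOP mRNAs, mostly elongation and initiation factors, 16 were lower and 2 higher in RS input than in naive input, with a median of -0.29. Eef1a1, the factor that delivers tRNA, had 1244 and 1510.2 TPM in RS input and 2267 and 2292 TPM in naive input. Between RS IP and RS input 8 of the 27 were higher and 14 lower, and between naive IP and naive input 6 were higher and 19 lower. Of 78 mitochondrial ribosomal protein genes, whose products form a separate ribosome, 45 were lower and 1 higher in RS input than in naive input (median -0.23), and 53 were higher and 9 lower in RS IP than in RS input (median 0.51). In naive mice 45 were higher and 12 lower in the IP (median 0.28). Of 24 ribosome biogenesis genes, 3 were higher and 2 lower in RS input than in naive input, 3 were higher and 21 lower in RS IP than in RS input, and 2 were higher and 18 lower in naive IP than in naive input, so that their counts between the inputs were near those shares. Of 11 genes for S6 kinases and catalytic subunits of the S6 phosphatase, 2 were higher and 0 lower in RS input than in naive input, 0 were higher and 10 lower in RS IP than in RS input, and 0 were higher and 9 lower in naive IP than in naive input. With median-of-ratios scaling these IP to input counts were 1 and 6 in RS and 0 and 5 in naive mice. For the biogenesis genes they were then 3 and 11 in RS and 4 and 11 in naive mice. The mitochondrial ribosomal protein genes then gave 72 and 4 in RS and 64 and 3 in naive mice. Of 7 listed ribosomal protein pseudogenes, 3 were lower and 0 higher in RS input than in naive input, and 6 were higher in RS IP than in RS input.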

How the data were processed

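RNA of 8 libraries (4 groups of 2 pools) was analysed. The authors aligned reads to mm10, and the labels name STAR and DESeq2 while TopHat and Cufflinks stand in the methods of the study, so the software behind the deposited columns is not settled. The deposited values were named FPKM, but each column summed to 1000000, so they were treated as TPM, and the test planned for FPKM was kept. Depth is unknown. Of 24972 rows per table, 26 whose symbols had become dates (0.148% to 0.283% of the TPM) were left out. Genes with at least 1 TPM in at least 2 libraries were kept (14365) and log2(TPM + 1) was fitted with limma 3.58.1 (R 4.3.3) on 4 group means, two-sided, with a trended prior and Benjamini-Hochberg adjustment over all 14365 genes. A call is an adjusted p under 0.05. A fold change on this scale understates that of low genes. The p-values rest on 1 estimate per gene of the spread between pools, joined over all 4 groups and drawn toward a trend over genes. They do not measure the spread of the 2 compared groups alone. The SD of the members' summed TPM was 2754 in RS input, 104 in RS IP, 63.6 in naive IP and 36.4 in naive input. Standard errors of comparisons with RS input thus also draw on groups whose pools lay closer together for these genes. The libraries of a condition share mice. The script was tested on simulated data.

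Named were Rps6, the 5 most abundant members, up to 6 called members at each end of each comparison with a mean of at least 5 TPM, and members of the paralog pairs, the P stalk, the 5S RNA binders and the ubiquitin fusion. The values of other members and of genes outside the rule, such as Fau, Eef1a1 and Rpl34-ps1, were chosen with values known. The members, lists and tests were chosen with earlier results of these data known. Lengths came from GENCODE vM21 (GRCm38) and start sequences from RefSeq (GRCm38.p6), with 63 of 84 members matched.

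IP and input of 1 number came from 1 pool by design. The correlation of their deviations from the group means was -0.05 in RS and -0.06 in naive mice over 14365 genes, and that between the inputs of both conditions was 0.16. Alternatives were a pseudocount of 0.1, no filter, a floor of 5 TPM, median-of-ratios scaling, correction for transcript length and GC content (14233 genes), the pool as a block in 2 ways, and each library left out. Some items, and a planned sum over an enlarged gene set, are not reported here.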

Additional observations from a re-analysis of the deposited data

Results flagged for a closer look

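The difference between RS and naive mice was not the same in IP and input for 59 of 84 ribosomal protein genes by the interaction term (limma, adjusted p under 0.05), where 3.29% of all genes tested passed on that side. The 6 with the greatest difference were Rps27 (1.43 on the log2 scale), Rps26 (1.12), Rps29 (0.98), Rps21 (0.96), Rpl37 (0.96) and Rpl41 (0.93), each positive, so that the IP to input ratio was higher in RS than in naive mice. With the pool as a block 8 of 84 passed, where 78 of 14365 genes passed in either direction. The RS input pools were below the naive input pools for 81 of 84 members, against 19.3% of all genes. RS and naive libraries also differed in choroid plexus markers and in the year of the dates in their tables, and the part of these in the result was not tested.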

How the results depend on the processing

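Over 62 results and 930 values under the alternatives, 851 kept their direction and side of the threshold, 69 kept their direction but were no longer past it, 3 were newly past it and 7 changed sign. The 78 members lower in RS input stayed between 72 and 81 under the alternatives, with 73 to 78 when 1 library was left out. Median-of-ratios scaling gave 0 members lower in RS IP than in RS input, where 4477 of 14365 genes were. It gave 1 lower in naive IP than in naive input, where 4117 genes were. Length and GC correction gave 18 members lower in naive IP, where 4190 of 14233 genes were. For the interaction, 59 became 7 without a filter, 12 with length and GC correction and 8 with the replicate block as a fixed term, and was 57 with the block as a correlated effect. Calls over all genes, in either direction, went from 970 to 246, 322, 78 and 942 in the same order. Leaving out 1 library gave 0 to 77 for the interaction, 71 to 75 higher and 1 to 3 lower for RS IP against RS input, 48 to 60 higher and 6 to 8 lower for naive IP against naive input, and 0 to 1 lower for RS IP against naive IP. After scaling the summed TPM was 44487 in RS IP, 46753 in naive IP, 15374 in RS input and 26986 in naive input. Signs turned with scaling for Rpl4 (0.36) and Rpl7l1 (0.0347) in RS IP against RS input and for Rpl13a (0.185) and Rplp0 (0.19) in naive IP against naive input. They turned with length and GC correction for Rps6 (-0.0462) and Rplp0 (-0.0137) in RS IP against RS input and for Rps6 (-0.20) in naive IP against naive input. The cause of these changes was not tested. The block changed the calls of Rps27, Rps26, Rps29 and Rpl41 in the interaction. Depth is unknown, so precision rests on 2 pools a group.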
